A study of Mus musculus with 6 samples.

Results

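The Notch pathway genes described here are *Notch1*, *Notch2*, *Notch3*, *Jag1*, *Jag2*, *Dll1*, *Rbpj*, *Hes1*, *Hes5* and *Hey1*. They were taken by gene symbol from the deposited table, which lists 9 of these 10 genes among 11339 genes. *Hes5* was not analysed here. RNA was sequenced from mouse retinas at postnatal day 14 (P14), in 3 *Mll1KO* and 3 wild-type (WT) samples named a, b and c, each made from 2 retinas. *Mll1KO* mice are homozygous for a floxed *Mll1* allele and carry Chx10-Cre, and the strain is given as C57Bl6/J for both genotypes. Chx10-Cre is a transgene that acts in retinal progenitor cells, so that cells of another origin, such as blood vessels, keep the gene. The study names the sequenced WT libraries by that strain, not as the Cre-negative littermates that it uses elsewhere. The methods call the 3 samples of a genotype biological replicates, and nothing in the labels says whether they came from separate litters. The p-values therefore set the genotype difference against the spread between these samples only.

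Notch receptors are single-pass membrane proteins that are activated by ligands of the Delta and Jagged families on neighbouring cells. Cleavage by ADAM proteases and gamma-secretase frees the intracellular domain, which enters the nucleus, binds the DNA-binding protein RBPJ with Mastermind coactivators and switches on repressor genes of the Hes and Hey families. In the developing retina this signal is known to keep progenitor cells undifferentiated and to favour Muller glia (MG), while Notch signalling in vessels acts in endothelial cells and in the mural cells around them.

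Values are RPKM, the reads of a gene divided by its length and scaled to the total reads of the library, so that levels of different genes can be compared. Recovered library totals were 23836033, 19777205 and 19323512 reads in the WT replicates a to c, and 23348923, 19855963 and 17961097 reads in the *Mll1KO* replicates a to c. Among the 9 members, the lowest number of reads in any library was 300, for *Hes1*, and the highest was 3215, for *Jag1*. Fold changes are *Mll1KO* against WT on the log2(RPKM + 1) scale, which understates the change of weakly expressed genes. A gene was called changed at a Benjamini-Hochberg adjusted p under 0.05 from limma over all 11339 genes. *Kmt2a*, as the floxed *Mll1* gene is now called, was at an RPKM of 36.1, 36.9 and 34.6 in the WT replicates a to c, and at 22.9, 20.4 and 22.3 in the *Mll1KO* replicates a to c. The highest *Mll1KO* value was thus well under the lowest WT value, and the standard error (SE) of the log2 fold change of -0.69 was 0.05 (limma adjusted p = 2.77e-05). These RPKM values also count reads from exons outside the floxed segment.

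Of the 9 members, 1 was called changed (11.1%), against 23.3% of all genes. This gene, the ligand *Dll1*, was higher in *Mll1KO*, so that 1 of 9 members was called higher where 8.81% of all genes were. None of the 9 was called lower by limma, where 14.5% of all genes were, and none was called lower by limma-voom. At an unadjusted p under 0.05 there were 2 members, *Dll1* and *Hes1*. The ranges of the genotypes did not overlap in 3 of 9 members (33.3%), namely *Jag2*, *Dll1* and *Hes1*, against 41.1% of all genes. The median log2 fold change of the members was 0.06, with -0.03 over all genes, and the median size of the change regardless of sign was 0.09 in both. The share called in either direction and the share with groups apart were below those of all genes, and the share called higher rests on 1 gene. The mean was higher in *Mll1KO* for 5 members and lower for 4, also with TMM, RLE or upper-quartile scaling, and the signs of *Notch2* and *Jag1* each rested on 1 library.

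Of the receptors, *Notch1* (ENSMUSG00000026923, chr2:26457903-26516663, minus strand, GRCm38) is the receptor best known from retinal progenitor cells. It was at an RPKM of 7.92, 7.86 and 7.53 in the WT replicates a to c, and at 7.80, 7.40 and 6.73 in the *Mll1KO* replicates a to c. Sample c was lowest in each genotype, and *Mll1KO* sample a lay within the WT range, so that the groups overlapped. The log2 fold change was -0.08, with a 95% confidence interval of -0.21 to 0.05 (limma adjusted p = 0.365), and it was -0.12 to -0.03 with 1 library left out, nearest to 0 without *Mll1KO* sample c. In the annotation, 9.8% of the exon bases of *Notch1* also lie in exons of genes on the opposite strand.

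*Notch2* (ENSMUSG00000027878, chr3:98013527-98150361, plus strand) is a receptor found in glial cells and other retinal cells. It was at 7.03, 6.34 and 6.83 in WT and at 7.19, 7.93 and 6.16 in *Mll1KO*, in the order a, b and c. The *Mll1KO* values spread on both sides of the WT values, with samples a and b above and sample c below all of them. The log2 fold change was 0.06 (95% confidence interval -0.12 to 0.24, limma adjusted p = 0.623), and without *Mll1KO* sample b it was -0.01.

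*Notch3* (ENSMUSG00000038146, chr17:32120820-32166852, minus strand), the receptor best known from mural cells of vessels, was the weakest of the 3 receptors. Its RPKM was 3.37, 3.33 and 3.78 in the WT replicates a to c, and 2.92, 3.52 and 3.18 in the *Mll1KO* replicates a to c. The lowest and the middle *Mll1KO* values were below every WT value, whereas *Mll1KO* sample b lay inside the WT range. *Notch3* had a log2 fold change of -0.10 (95% confidence interval -0.25 to 0.06, limma adjusted p = 0.338), with a range of -0.15 to -0.05 over the fits that leave out 1 library. The remaining receptor, *Notch4*, known from endothelial cells and not among the 10 genes, had a WT mean of 2.01 ± 0.0931 (SD, n = 3) and an *Mll1KO* mean of 1.82 ± 0.0986 (SD, n = 3) and was not called (log2 fold change -0.10, limma adjusted p = 0.226).

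Of the ligands, *Jag1* (ENSMUSG00000027276, chr2:137081456-137116644, minus strand) encodes Jagged1. It was at an RPKM of 18.3, 19.4 and 19.9 in the WT replicates a to c, and at 23.6, 18.3 and 20.0 in the *Mll1KO* replicates a to c. *Mll1KO* sample a stood above the other 5 libraries, and *Mll1KO* sample b was as low as the lowest WT sample. The log2 fold change was 0.09 (95% confidence interval -0.09 to 0.27, limma adjusted p = 0.444), and it was -0.01 without *Mll1KO* sample a.

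*Jag2* (ENSMUSG00000002799, chr12:112907819-112929776, minus strand) encodes Jagged2. Its RPKM was 18.6, 19.5 and 19.8 in WT and 20.3, 21.8 and 19.9 in *Mll1KO*, in the same order. The groups did not overlap, although the lowest *Mll1KO* sample, c, was close to the highest WT sample. The log2 fold change was 0.09 (95% confidence interval -0.01 to 0.20), which was not called (limma adjusted p = 0.185) and went from 0.06 to 0.12 when single libraries were left out.

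*Dll1* (ENSMUSG00000014773, chr17:15367354-15376872, minus strand) encodes Delta-like 1, a ligand that newly formed neurons present to neighbouring progenitor cells. It was at 4.85, 6.004 and 5.45 in the WT replicates a to c, and at 7.12, 6.18 and 6.78 in the *Mll1KO* replicates a to c. Every *Mll1KO* sample was above every WT sample, and the gap was narrow, since *Mll1KO* sample b was just above WT sample b. The *Mll1KO* mean of 6.69 ± 0.473 (SD, n = 3) was 123.2% of the WT mean of 5.43 ± 0.576 (SD, n = 3). The log2 fold change was 0.26 (SE 0.08, 95% confidence interval 0.09 to 0.43, limma adjusted p = 0.0332, with alternatives from 0.0163 to 0.101). The call was lost without WT sample a (log2 fold change 0.19, limma adjusted p = 0.101), WT sample c (0.26, adjusted p = 0.0718), *Mll1KO* sample a (0.22, adjusted p = 0.0888) or *Mll1KO* sample c (0.25, adjusted p = 0.0963), and with a term for the replicate letter (0.26, adjusted p = 0.0716). Of the exon bases of *Dll1*, 20.5% also lie in exons of the long noncoding gene *A930024N18Rik* on the opposite strand, and since it is not stated whether strand was used in counting, reads of the pair cannot be told apart there.

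*Rbpj* (ENSMUSG00000039191, chr5:53466152-53657362, plus strand), which encodes the DNA-binding protein of the pathway, was the weakest member. Its RPKM was 2.75, 3.21 and 2.94 in the WT replicates a to c, and 2.62, 2.86 and 3.04 in the *Mll1KO* replicates a to c. The groups overlapped over most of their range. For *Rbpj* the log2 fold change was -0.05 with a 95% confidence interval of -0.19 to 0.10 (limma adjusted p = 0.656), and without WT sample b or *Mll1KO* sample a it was -0.001 and -0.004, respectively.

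Of the target genes, *Hes1* (ENSMUSG00000022528, chr16:30064384-30067796, plus strand) encodes a repressor of genes that start neuronal differentiation. It was at an RPKM of 9.08, 8.81 and 8.54 in the WT replicates a to c, and at 6.52, 8.33 and 8.20 in the *Mll1KO* replicates a to c. No *Mll1KO* sample reached the lowest WT value, but *Mll1KO* samples b and c were close to WT sample c and only *Mll1KO* sample a was clearly lower. The *Mll1KO* mean of 7.68 ± 1.01 (SD, n = 3) was 87.2% of the WT mean of 8.81 ± 0.273 (SD, n = 3). Its log2 fold change was -0.18 (SE 0.08), and its 95% confidence interval of -0.36 to -0.003 excluded 0, but the gene was not called after adjustment over all genes (limma adjusted p = 0.13). Without *Mll1KO* sample a the log2 fold change was -0.08.

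*Hey1* (ENSMUSG00000040289, chr3:8663359-8667256, minus strand), a repressor of the Hey family that is also known from endothelial cells, was at 6.63, 7.25 and 7.47 in WT and at 7.66, 7.45 and 8.16 in *Mll1KO*, in the order a, b and c. The groups touched, with *Mll1KO* sample b just below WT sample c. A log2 fold change of 0.11 was found (95% confidence interval -0.02 to 0.24, limma adjusted p = 0.205), which was 0.07 without WT sample a, so that the 2 targets had opposite signs and neither was called.

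**Figure D1:**
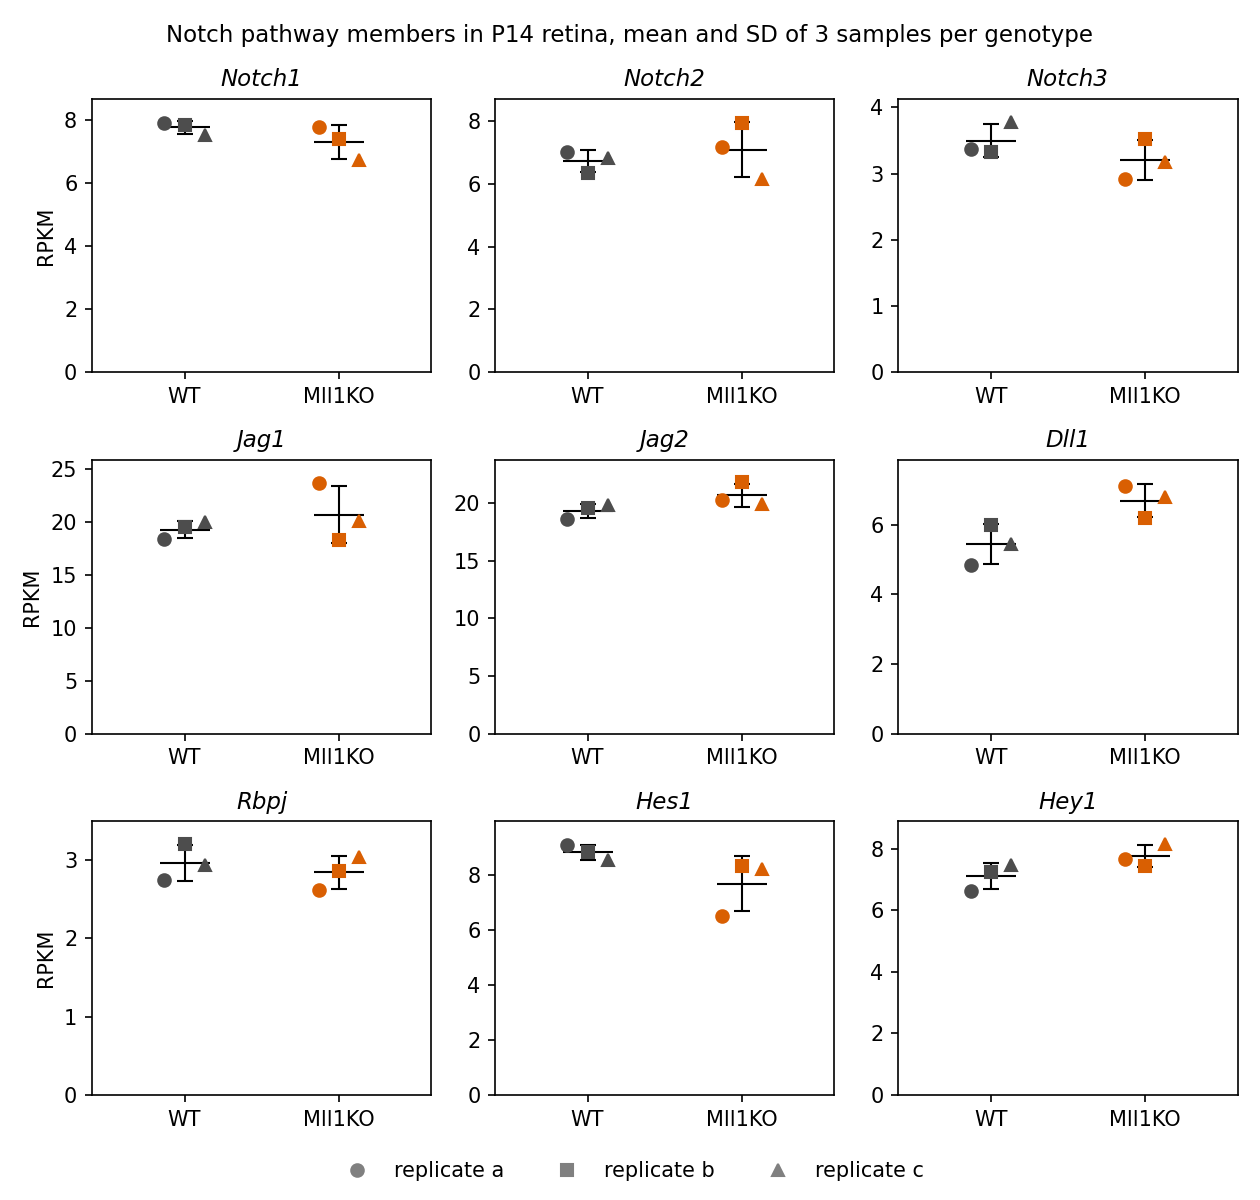
RPKM of the 9 listed Notch pathway members in each sample (vertical axes, each starting at 0; horizontal axis, genotype). Points are samples, with a shape for each replicate letter, and the bars give the mean and SD of 3 samples. The *Dll1* samples of *Mll1KO* lie between 6.18 and 7.12, above the WT samples at 4.85 to 6.004, and *Mll1KO* sample a stands apart for *Jag1* (23.6) and *Hes1* (6.52).

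In WT the members had the order *Jag2* (mean RPKM 19.3), *Jag1* (19.2), *Hes1* (8.81), *Notch1* (7.77), *Hey1* (7.12), *Notch2* (6.74), *Dll1* (5.43), *Notch3* (3.50) and *Rbpj* (2.96). The ranges of neighbours in this order overlapped for *Jag2* and *Jag1* and for *Hey1* and *Notch2*, and the other neighbours were apart in all 3 WT samples. The median gene of the table had a mean RPKM of 9.41 over the 6 samples, so that only the Jagged genes were above it. In *Mll1KO* the order was *Jag2* (20.7), *Jag1* (20.6), *Hey1* (7.76), *Hes1* (7.68), *Notch1* (7.31), *Notch2* (7.10), *Dll1* (6.69), *Notch3* (3.21) and *Rbpj* (2.84). There, each neighbour from *Hey1* to *Dll1* overlapped with the next, as did the Jagged pair and the pair of *Notch3* and *Rbpj*. The place of *Hes1* after *Hey1* in *Mll1KO* rested on sample a alone, since *Hes1* had the higher RPKM of the 2 in *Mll1KO* samples b and c, as in every WT sample. The spread between samples, as SD over mean, was 2.7% (*Notch1*) to 10.6% (*Dll1*) in WT and 4.7% (*Hey1*) to 13.2% (*Jag1* and *Hes1*) in *Mll1KO*.

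The other genes of the pathway were taken from a list by role, of which 54 of 67 were listed. Of these 54, 14 were called lower (25.9%) and 1 was called higher (1.85%), against 14.5% and 8.81% of all genes. Their median log2 fold change was -0.11 and that of all genes was -0.03. The mean was lower in *Mll1KO* for 44 of them. The split of calls over all genes depended on the scaling, since 37.8% of the 2643 calls were higher as deposited and 51.9% of 2422 calls were higher with TMM factors. With TMM factors 10 of the other pathway genes were called lower and 1 higher, with a median of -0.08 against 0.00 over all genes. With RLE factors 9 were called lower and 1 higher. Limma-voom called 17 lower and 1 higher, with 1818 lower calls over all genes. Leaving out 1 library gave 8 to 16 lower calls, with 8 without WT sample b and 9 without *Mll1KO* sample b, and 1 higher call each time.

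Among receptor-modifying enzymes, *Mfng*, which encodes the Fringe glycosyltransferase Manic fringe, had an RPKM of 3.21, 3.69 and 3.44 in the WT replicates a to c, and of 2.16, 2.29 and 1.98 in the *Mll1KO* replicates a to c. Every *Mll1KO* value was under the lowest WT value, with the mean at 62.2% of the WT mean (log2 fold change -0.50, SE 0.06, limma adjusted p = 0.000506). *Pofut1*, whose product adds the O-fucose that Fringe enzymes extend, was the only other pathway gene called higher. It had a WT mean of 7.20 ± 0.378 (SD, n = 3) and an *Mll1KO* mean of 8.56 ± 0.181 (SD, n = 3) (log2 fold change 0.22, limma adjusted p = 0.0144). The remaining 4 listed genes of this group were not called.

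All 3 listed non-canonical ligands were called lower. *Cntn1*, a contactin of axons, had a WT mean of 21.1 ± 0.264 (SD, n = 3) and an *Mll1KO* mean of 17.7 ± 0.268 (SD, n = 3) (log2 fold change -0.24, limma adjusted p = 0.00221). *Dner*, a neuronal transmembrane protein with EGF repeats, had a log2 fold change of -0.16 (limma adjusted p = 0.0179), and its call was lost without WT sample c (adjusted p = 0.0575) or *Mll1KO* sample b (0.0606) and with RLE factors (0.054). *Dlk2* had a log2 fold change of -0.31 with overlapping groups (limma adjusted p = 0.0448). The *Dlk2* call was lost with TMM, RLE and upper-quartile factors (limma adjusted p = 0.0599, 0.0596 and 0.0665), with a term for the replicate letter (0.084) and without WT sample a (0.0567), b (0.144) or c (0.0944) or *Mll1KO* sample b (0.126) or c (0.117). *Dlk1*, *Dll3* and *Dll4* were not analysed here.

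None of the 3 listed genes for ligand endocytosis and none of the 6 listed genes for receptor cleavage was called by limma or limma-voom, with 0 and 2 of them at an unadjusted p under 0.05. The E3 ligase genes *Mib2* and *Mib1* were at 0.08 and -0.13 (log2 fold change, limma adjusted p = 0.387 and 0.156), and *Mib1* was called lower without WT sample a (-0.20, limma adjusted p = 0.0246). Among the protease genes, the presenilin gene *Psen2* was highest at 0.08 and the gamma-secretase subunit gene *Aph1b* lowest at -0.19 (log2 fold change, limma adjusted p = 0.404 and 0.0605).

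Of 8 listed genes for RBPJ coactivators, 1 was called, the acetyltransferase gene *Ep300*. It had a WT mean of 27.1 ± 1.37 (SD, n = 3) and an *Mll1KO* mean of 23.9 ± 0.672 (SD, n = 3) (log2 fold change -0.17, limma adjusted p = 0.0252). The *Ep300* call did not hold with TMM, RLE and upper-quartile factors (limma adjusted p = 0.0687, 0.0762 and 0.064) and without WT sample a (0.072) or b (0.0739) or *Mll1KO* sample b (0.0507) or c (0.0962). *Snw1* was the highest of the group, at 0.10 (log2 fold change, limma adjusted p = 0.248), and 44.2% of its exon bases in the annotation also lie in exons of *Slirp* on the opposite strand.

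Of 11 listed corepressor genes, 3 were called lower and none higher. Among them were *L3mbtl3* (log2 fold change -0.25, limma adjusted p = 0.0136) and the histone deacetylase gene *Hdac2* (-0.23, adjusted p = 0.00418). *Hdac2* was at 20.3, 20.2 and 20.0 in the WT replicates a to c, and at 17.7, 16.6 and 16.9 in the *Mll1KO* replicates a to c, so that the gap between the groups was wider than the spread within either. With WT sample b left out, *L3mbtl3* was not called (limma adjusted p = 0.0595). *Fhl1* was the highest of the group, at 0.11 (log2 fold change, limma adjusted p = 0.173). By limma-voom 6 of the 11 genes were called, and 7 had an unadjusted limma p under 0.05.

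Groucho/TLE proteins are corepressors known to be bound by Hes proteins. Of 5 listed genes, 2 were called lower and none higher. *Tle3* was at an RPKM of 7.19, 6.90 and 6.77 in the WT replicates a to c, and at 4.69, 4.43 and 4.74 in the *Mll1KO* replicates a to c. Its groups were far apart, with *Mll1KO* at 66.4% of WT (log2 fold change -0.50, SE 0.05, limma adjusted p = 0.000182). *Tle2* was lower by a log2 fold change of -0.26 (limma adjusted p = 0.00371), while *Tle4* was at -0.06 (adjusted p = 0.364). The other listed Hes and Hey genes, *Hes6* and *Hey2*, had log2 fold changes of -0.18 and -0.17 and were not called (limma adjusted p = 0.121 and 0.0869), with both at an unadjusted p under 0.05 and neither called by limma-voom. *Hes6* was called lower with a term for the replicate letter (-0.18, limma adjusted p = 0.0458) or where *Mll1KO* sample c was left out (-0.26, adjusted p = 0.0336).

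Of 9 listed receptor regulators, 4 were called lower and none higher. *Dtx1*, a Deltex E3 ligase gene that is also a known Notch target, was at 24.7, 22.1 and 22.4 in the WT replicates a to c, and at 17.2, 18.2 and 15.8 in the *Mll1KO* replicates a to c. Every *Mll1KO* sample was below every WT sample (log2 fold change -0.41, SE 0.06, limma adjusted p = 0.00131). *Dtx4* had a WT mean of 14.04 ± 0.703 (SD, n = 3) and an *Mll1KO* mean of 11.2 ± 0.377 (SD, n = 3) (log2 fold change -0.31, limma adjusted p = 0.00243). *Fbxw7*, which encodes the E3 ligase subunit that marks the receptor's intracellular domain for breakdown, was at -0.20 (log2 fold change, limma adjusted p = 0.0143), and the call was lost without WT sample b (0.0624) or *Mll1KO* sample b (0.0505).

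*Nrarp*, a target gene whose product limits the Notch signal, was at 5.28, 6.54 and 5.61 in WT and at 4.96, 4.90 and 4.57 in *Mll1KO*, in the order a, b and c. The groups did not overlap, and WT sample b was the highest (log2 fold change -0.23, limma adjusted p = 0.0483). It was no longer called with TMM, RLE and upper-quartile factors (limma adjusted p = 0.0718, 0.0725 and 0.0806), with limma-voom (0.065), with a term for the replicate letter (0.0585) and without WT sample b (0.159) or c (0.0761) or *Mll1KO* sample a (0.0651), b (0.0861) or c (0.147). Of its exon bases, 79.4% also lie in exons of *Gm38287* on the opposite strand.

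**Figure D2:**
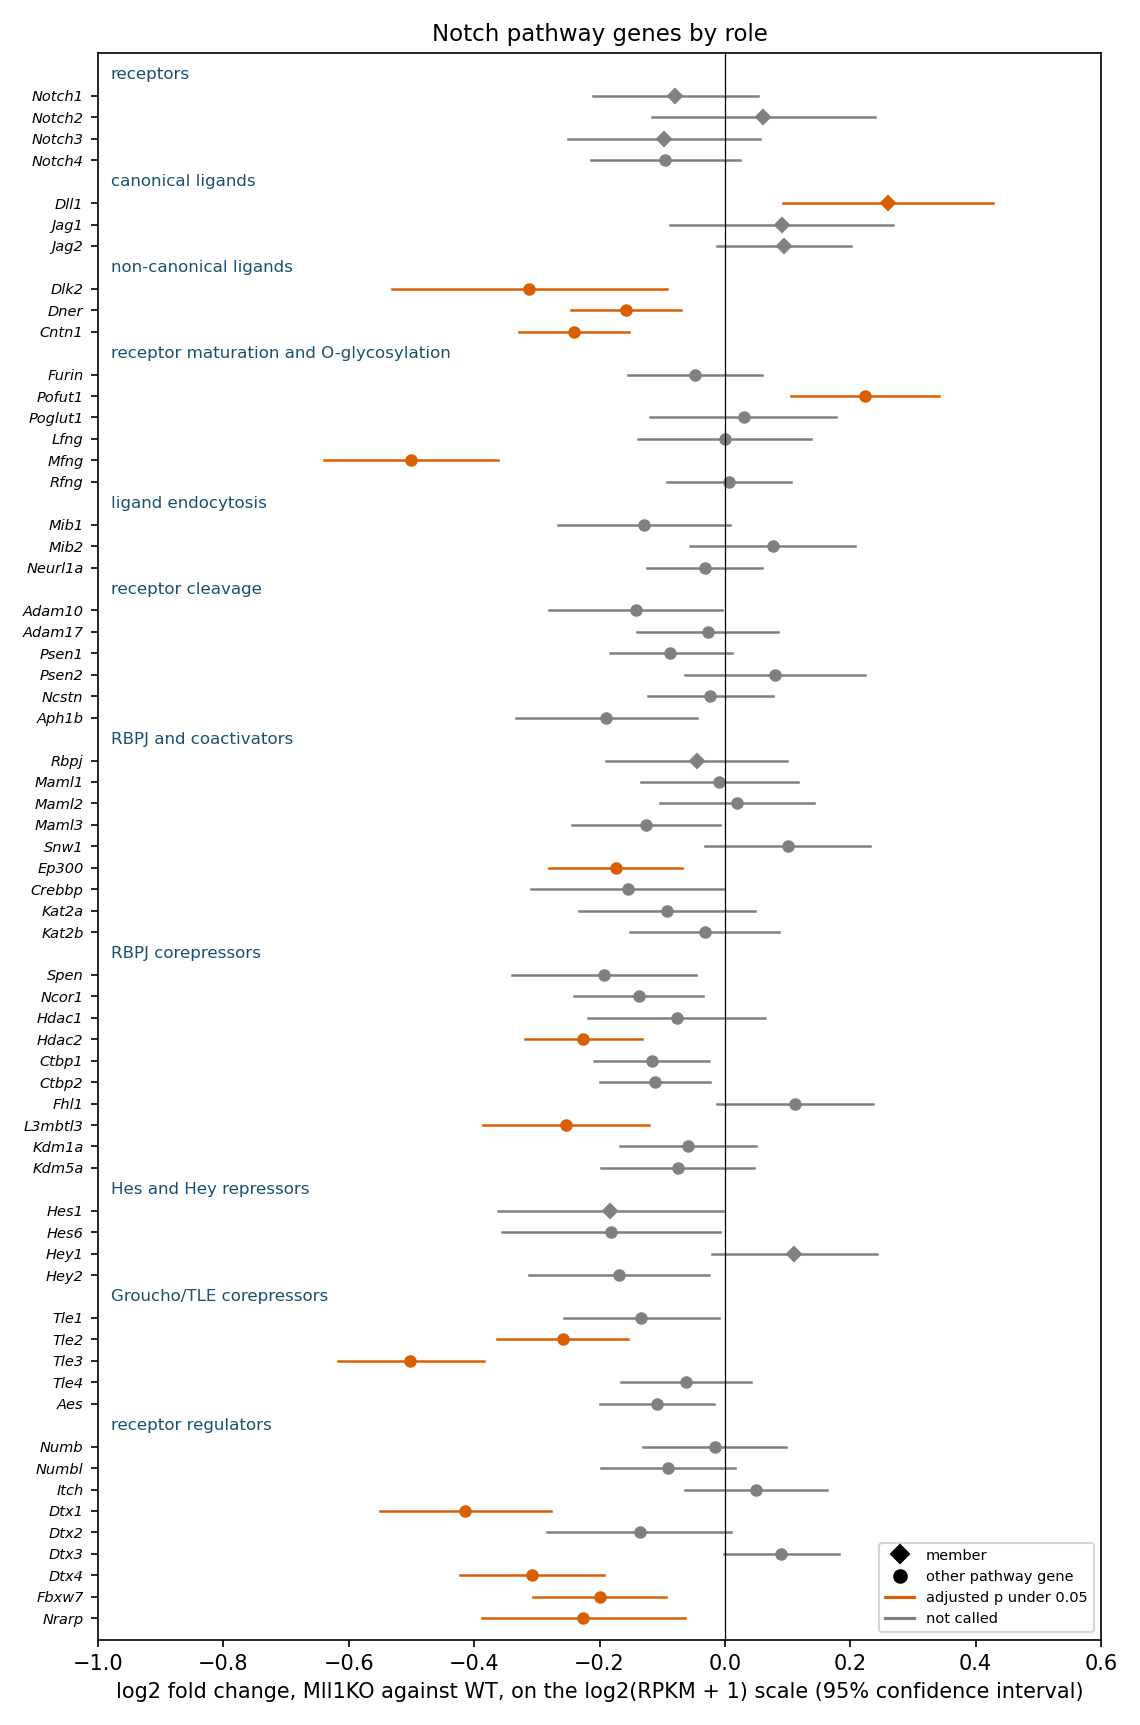
Log2 fold change of *Mll1KO* against WT on the log2(RPKM + 1) scale (horizontal axis) for listed Notch pathway genes, grouped by role (vertical axis). Diamonds are the 9 members and circles the other genes, lines are 95% confidence intervals that are not adjusted for the number of genes, and orange marks a limma adjusted p under 0.05. *Dll1* and *Pofut1* are the called genes to the right of 0, and *Mfng* and *Tle3* lie furthest to the left, at -0.50.

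Cell types of the retina and its vessels were followed with marker lists. In whole retina, fewer cells of a type and less RNA per cell cannot be told apart. The part of any of these cell types in the values of the Notch genes was not tested. All 12 rod markers were listed. In this list 8 genes were called higher and 1 lower, with *Pde6a* highest and *Nr2e3* lowest (log2 fold change 0.48 and -0.36, limma adjusted p = 0.000101 and 0.00946).

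All 14 MG markers were listed, with a summed RPKM of 1655, 1646 and 1780 in the WT replicates a to c, and of 2013, 2062 and 2046 in the *Mll1KO* replicates a to c. The sum was higher in every *Mll1KO* sample, 6 genes were called higher and 2 lower, and the median log2 fold change was 0.10. *Glul*, for glutamine synthetase, was the most abundant (log2 fold change 0.47, limma adjusted p = 0.000317), *Abca8a* was highest (0.55, adjusted p = 0.000167) and the intermediate filament gene *Vim* was lowest (-0.47, adjusted p = 8.29e-05). Of 4 astrocyte markers 3 were listed (*Pax2* was not), with sums of 11.1, 11.8 and 11.2 in WT and 19.2, 18.2 and 17.8 in *Mll1KO*, in the order a, b and c. *Gfap*, the most abundant and the highest of this list, had a log2 fold change of 0.97 (limma adjusted p = 4.26e-05), and *Pdgfra* was lowest at 0.16 (adjusted p = 0.0969). The mean RPKM of *Gfap* was 4.12 in WT and 9.06 in *Mll1KO*, where the sums had means of 11.4 and 18.4. Most of the rise in the sum thus came from *Gfap*, and which cells held its RNA was not tested.

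For vessels, of 14 endothelial markers 11 were listed (*Emcn*, *Erg* and *Sox17* were not), with summed RPKM of 104, 103 and 102 in the WT replicates a to c, and of 83.8, 75.9 and 78.8 in the *Mll1KO* replicates a to c. *Kdr*, the most abundant and lowest gene (log2 fold change -0.73, limma adjusted p = 0.000115), and 3 more were called lower, and *Flt1* was called higher (0.32, adjusted p = 0.0019). *Kdr* had a mean RPKM of 37.6 in WT and 22.3 in *Mll1KO*, where the sums had means of 103 and 79.5. Most of the fall in the sum thus came from *Kdr*, and the median log2 fold change of the list was -0.20. Of 9 markers of pericytes and smooth muscle 5 were listed (*Kcnj8*, *Myh11*, *Des* and *Tagln* were not), with sums of 59.3, 44.2 and 63.6 in WT and of 39.3, 38.4 and 41.4 in *Mll1KO*. In this list 3 genes were called lower and none higher, with *Rgs5* most abundant (log2 fold change -0.26, limma adjusted p = 0.00911) and *Pdgfrb* highest at 0.01 (adjusted p = 0.949). *Acta2*, for smooth muscle actin, was at 14.5, 3.21 and 22.3 in the WT replicates a to c, and at 3.99, 3.56 and 3.35 in the *Mll1KO* replicates a to c. WT sample b was thus as low as the *Mll1KO* samples, and the gene was called only without that sample (log2 fold change -2.04, limma adjusted p = 9.38e-05, against -1.31 and 0.0771 with it).

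Of 12 markers of cycling progenitor cells 3 were listed, *Pcna*, *Mcm2* and *Ccnd1*, and among those not listed were *Mki67*, *Top2a*, *Ccnb1*, *Cdk1*, *Fgf15*, *Sfrp2*, *Neurog2* and *Atoh7*. The 3 listed genes had a summed RPKM of 18.2, 18.7 and 19.8 in WT and 18.5, 17.5 and 18.5 in *Mll1KO*, in the order a, b and c. None of the 3 was called by limma or limma-voom or had an unadjusted p under 0.05. *Pcna* was most abundant and lowest (log2 fold change -0.10, limma adjusted p = 0.315), and *Mcm2* was highest at 0.04 (adjusted p = 0.738). Of 9 microglia markers 4 were listed (*P2ry12*, *C1qa*, *Aif1*, *Tyrobp* and *Trem2* were not), with sums of 17.1, 17.2 and 16.7 in WT and 15.8, 17.4 and 18.3 in *Mll1KO*. None of these was called by limma or limma-voom or had an unadjusted p under 0.05, from *C1qb* (-0.13, limma adjusted p = 0.229), the most abundant, to *C1qc* (0.15, adjusted p = 0.179). *C1qb* was called lower without *Mll1KO* sample c (-0.20, limma adjusted p = 0.0495).

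Neuron markers differed by type. For cones, 8 of 8 were listed, 6 called higher and 1 lower, with summed RPKM of 340, 355 and 372 in the WT replicates a to c, and of 408, 427 and 446 in the *Mll1KO* replicates a to c. *Opn1mw* was most abundant, *Arr3* highest (log2 fold change 0.66) and *Opn1sw* lowest (-0.44). For bipolar cells, 8 of 8 were listed, 5 called lower and none higher, with *Pcp2* highest (log2 fold change 0.07) and *Vsx1* lowest (-0.68).

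For ganglion cells, 9 of 9 were listed and 8 called lower, with sums of 571, 531 and 558 in the WT replicates a to c, and 450, 399 and 372 in the *Mll1KO* replicates a to c. *Sncg* was most abundant, *Slc17a6* highest (log2 fold change -0.15) and *Pou4f2* lowest (-0.89). For horizontal cells, 4 of 6 were listed (*Lhx1* and *Gja10* were not) and 3 called lower, with sums of 53.0, 54.6 and 50.5 in WT and 37.1, 38.4 and 39.9 in *Mll1KO*. *Prox1* was most abundant, *Calb1* highest (log2 fold change -0.13) and *Onecut1* lowest (-0.64). For amacrine cells, 9 of 9 were listed, 2 called higher and 4 lower, with sums of 263, 249 and 261 in WT and 246, 243 and 272 in *Mll1KO*, which overlap. *Slc32a1* was most abundant (log2 fold change 0.16, limma adjusted p = 0.0665), *Gad1* highest (0.30) and *Gad2* lowest (-0.49). *Slc32a1* was called higher with TMM, RLE and upper-quartile factors (limma adjusted p = 0.0367, 0.0349 and 0.0346), with limma-voom (0.0433), with a term for the replicate letter (0.0386) and without *Mll1KO* sample b (0.0485).

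MLL1 binds DNA that holds unmethylated CG dinucleotides through its CXXC domain, and RBPJ and the Hes and Hey repressors recognise short motifs, so that the promoters of the members were read for these letters. RefSeq sequences on GRCm38.p6 were found for 7 of the 9 listed members, with 9 windows of 250 bases before a start site, since *Dll1* and *Rbpj* have 2 starts each. *Hes1* and *Hey1* were not among them. In the annotation, exons of the gene itself lie in every window but those of *Notch3* and the upstream start of *Dll1*. Most windows thus do not lie wholly before the annotated gene. The windows held 13 (*Dll1*) to 54 (*Jag2*) CG dinucleotides, against a median of 6 over 32851 promoters of the same length, whose quartiles were 2 and 16. The RBPJ core TGGGAA, searched on both strands, was in both *Rbpj* windows and in no other member's, against 21.6% of all promoters. These 2 windows share 110 bases and hold 2 separate matches, 1 of which lies in both. The letters CACGNG, a motif of Hes and Hey proteins, were in 5 of 9 windows and in 23.5% of all promoters, and CACNAG was in 3 of 9 windows and in 36.7% of all promoters. A sequence such as CACGAG matches both of these motifs. Both windows of *Dll1* are among the 5 with CACGNG. That motif itself holds a CG, and every member window held more CG dinucleotides than the median promoter. Promoters with a like number of CG dinucleotides were not compared. A match describes the letters and shows no binding.

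The window before the upstream start of *Dll1* is shown because this was the only member called, and because no exon of *Dll1* lies in it. It spans chr17:15376933-15377182 on the minus strand of GRCm38.p6, within *A930024N18Rik*, whose exons it overlaps on the opposite strand. Capitals mark its single match to CACGNG, and it holds 13 CG dinucleotides, more than 68.5% of promoters.
*Dll1* upstream start: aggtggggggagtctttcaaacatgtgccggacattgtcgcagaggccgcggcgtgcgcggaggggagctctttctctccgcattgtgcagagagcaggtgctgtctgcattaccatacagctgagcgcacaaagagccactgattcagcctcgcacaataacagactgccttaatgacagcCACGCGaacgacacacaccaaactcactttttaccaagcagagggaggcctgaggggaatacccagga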

How the data were processed

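RNA-seq of 3 *Mll1KO* and 3 WT samples was analysed from a table of RPKM values, deposited by the authors, with 1 value per gene and library. Per the labels and the study's methods, reads were aligned with STAR 2.0.4b to the mouse genome (mm10 in the labels, where the methods name another build), counted per gene with featureCounts 1.45 of Subread, and kept where CPM was above 5 in at least 5 samples. The table also holds the authors' log2 fold changes, mean CPM, p-values and FDR from edgeR (3.17.9 in the labels, another version in the methods), which were not used.

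The table had 11404 lines for 11339 genes (59 gene IDs repeated, with identical values), and 18 symbols turned into dates were restored from their IDs. *Tle5* was read under its older symbol *Aes*. A few genes of the pathway and marker lists are not reported here by name and are not drawn, but they count in the totals of their lists. Positions and exon overlaps came from GENCODE vM21, which matched 11323 genes. Library totals and reads were recovered from RPKM: 99.95% of genes gave whole reads in all libraries, within 0.05 reads, and limma-voom on these reads called 2899 genes. About 98.4% of each library's reads lay on the listed genes.

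Genotypes were compared with limma 3.58.1 in R 4.3.3 on log2(RPKM + 1) with a variance trend and no other terms, calling genes at a Benjamini-Hochberg adjusted p under 0.05 over all 11339. No values were filtered or rescaled. The members, pathway roles and marker lists were chosen with earlier results of these data known. Genes named were every listed member, *Kmt2a*, in each role up to 4 other called genes with the largest change, or the highest and lowest where fewer were called, and in each marker list the most abundant, highest and lowest gene. Marker lists were used for MG, astrocytes, endothelium, pericytes and smooth muscle, cycling progenitors, microglia, rods, cones and horizontal, amacrine, bipolar and ganglion cells. Alternatives were pseudocounts of 0.1 and 5, TMM, RLE and upper-quartile factors, limma-voom, no variance trend, a mean RPKM of at least 1, a term for the replicate letter, and each library left out in turn. The procedure was tested on simulated reads. Python 3.11.15, numpy 2.4.6, pandas 2.3.3 and matplotlib 3.10.9 were used.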

Additional observations from a re-analysis of the deposited data

How the results depend on the processing

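For the 9 members, 128 of 135 values under the alternatives kept both their direction and their side of the threshold, 80 of 81 of them among the 9 alternatives that used all libraries. The exception there was *Dll1* with a term for the replicate letter (replicate block), at a log2 fold change of 0.26 that was no longer called (limma adjusted p = 0.0716), so that 0 members were called. The letters share only a name, since the deviations of same-letter samples correlated at -0.19 to -0.01. The replicate block gave 2242 changed genes and 15 other pathway genes, a total that also counts genes not named here. Of the other pathway genes that are named, *Dlk2* and *Nrarp* lost their calls (limma adjusted p = 0.084 and 0.0585) and *Hes6* gained one (0.0458). With each library left out in turn, the log2 fold change of *Dll1* was 0.19 to 0.32 and 0 to 1 members were called, that of *Jag1* was -0.006 to 0.17 and that of *Notch2* -0.013 to 0.15, the negative values being without *Mll1KO* sample a and *Mll1KO* sample b, respectively. The number of changed genes was then 1704 to 2536 (lowest without WT sample b), of lower genes 1030 to 1559, of other pathway genes 9 to 17, and of lower ones among these 8 to 16. With RLE factors 9 other pathway genes were called lower. Fewer samples enter the fits without a library, and for RLE factors the cause was not tested. *Kmt2a* was called in every alternative (log2 fold change -0.72 to -0.61). Of 870 values of other named genes, *Kmt2a* included, 813 kept direction and side, 54 gained or lost a call and 3 changed sign, in uncalled genes with 1 library left out: *Mcm2* (-0.022 to 0.13), *Pcp2* (-0.003 to 0.13) and *Pdgfrb* (-0.031 to 0.037). With 3 samples a genotype, differences as small as those of most members lie within their confidence intervals, and equal levels are not shown.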
